A study of Mus musculus with 15 samples.

Results

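Levels of 10 antioxidant enzyme transcripts were followed in mouse quadriceps muscle. They encode the superoxide dismutases Sod1, Sod2 and Sod3, catalase (Cat) and the peroxiredoxins Prdx1 to Prdx6. The genes were taken by name as the known members of these enzyme families, and all 10 were found among the 39179 genes counted in each of the 15 mice. RNA was sequenced from homozygous Mrps5 V338Y knock-in mice and from wild-type (WT) mice of the C57BL/6 strain. Mrps5 is a protein of the small mitochondrial ribosomal subunit, and the V338Y exchange is an inherited point mutation that lowers the accuracy of mitochondrial translation. The groups held 4 WT and 4 V338Y mice of 3 mo and 3 WT and 4 V338Y mice of 19 mo, each mouse being 1 library.

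Superoxide dismutases convert superoxide, a by-product of respiration, into hydrogen peroxide. Catalase breaks hydrogen peroxide down in peroxisomes, and peroxiredoxins reduce it with electrons that mostly come from thioredoxin. The enzymes divide the cell among them: Sod1, Prdx1, Prdx2 and Prdx6 act mainly in the cytosol, Sod2 and Prdx3 in the mitochondrial matrix, Prdx5 in mitochondria, peroxisomes and cytosol, Prdx4 in the endoplasmic reticulum, and Sod3 is secreted to the extracellular matrix. Skeletal muscle relies on them because contraction and mitochondrial respiration produce superoxide.

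Total counts ran from 8250653 to 18968132 per mouse. The skeletal fiber marker list summed to between 155775 and 296194 TMM CPM (read counts scaled by library size with the trimmed mean of M-values), as the tissue label calls for. Mrps5 transcript did not differ by genotype (log2 fold change 0.12 at 3 mo and 0.0059 at 19 mo), which checks nothing for a point mutation. All 8 mice of 3 mo carried the Y-linked transcript Ddx3y (163 to 202 CPM) and had Xist at or below 0.57 CPM. All 7 mice of 19 mo showed the reverse, with Xist between 506 and 631 CPM and Ddx3y at or below 0.083 CPM, although the study's methods call the 3 mo mice female. Age and sex therefore cannot be told apart in any 19 mo against 3 mo difference given here. In bulk muscle, fewer cells of a type and less RNA per cell cannot be told apart either.

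Of the 10 genes, 8 have a promoter in the RefSeq table used here (GRCm38.p6), and Sod3 and Prdx6 have none there. The promoters of Sod1 and Prdx1 are shown because both transcripts fell at 19 mo in both genotypes and because these windows hold the antioxidant response element core, the motif bound by Nrf2. The core was searched as TGACNNNGC on both strands in windows of 300 bases around the transcription start, and capitals mark the match. The Sod1 window is chr16:90220512-90220811 on the plus strand, and the Prdx1 window is chr4:116685349-116685648 on the plus strand.
Sod1: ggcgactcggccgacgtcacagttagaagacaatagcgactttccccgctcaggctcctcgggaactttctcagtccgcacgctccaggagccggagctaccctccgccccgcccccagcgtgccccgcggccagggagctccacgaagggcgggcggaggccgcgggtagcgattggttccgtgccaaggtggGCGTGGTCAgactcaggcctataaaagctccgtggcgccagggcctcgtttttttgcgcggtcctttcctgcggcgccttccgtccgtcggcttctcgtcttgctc
Prdx1: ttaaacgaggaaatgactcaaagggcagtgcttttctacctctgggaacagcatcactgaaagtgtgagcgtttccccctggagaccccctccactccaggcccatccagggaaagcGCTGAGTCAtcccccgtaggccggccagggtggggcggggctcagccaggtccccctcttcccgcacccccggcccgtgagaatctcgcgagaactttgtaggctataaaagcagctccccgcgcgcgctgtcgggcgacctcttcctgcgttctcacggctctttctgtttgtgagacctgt
The match in Sod1 lay at -56 to -48 from the start and that in Prdx1 at -133 to -125, both on the minus strand. The core was present in 2 of the 8 windows and in 12.4% of all 32851 promoters of the table. The NRF1 core, the estrogen-related receptor motif AAGGTCA and the FOXO core GTAAACA were in none of the 8, against 4.6%, 4.72% and 3.65% of all promoters. The SP1 core GGGCGG was in all 8, against 35.7% of all promoters. These matches describe the letters of the windows and show no binding.

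Levels between genes were compared as CPM per kilobase of the principal transcript, averaged over mice. In 3 mo WT muscle, Sod1 was highest at 178 ± 7.20 CPM per kilobase (SD, n = 4). It was followed by Prdx3 at 120.4 ± 6.60 and Prdx1 at 81.7 ± 4.51. These 3 stood apart from each other beyond their SDs. Prdx5 (61.0 ± 6.91), Cat (46.3 ± 5.84), Prdx2 (45.1 ± 3.39), Sod2 (35.7 ± 1.22) and Prdx6 (24.2 ± 1.94) followed, and Cat and Prdx2 did not differ beyond their SDs. Prdx4 was at 5.06 ± 1.07 and Sod3 at 1.75 ± 0.489 CPM per kilobase, the lowest of the 10. When the length of all exons was used instead, the order of the upper genes changed and Prdx3 came first (120.4 CPM per kilobase, with Sod1 at 28.8), while Sod3 and Prdx4 remained the lowest in all 4 groups. Sod3 had between 37 and 166 reads per mouse and Prdx4 between 39 and 77, whereas the other 8 genes had at least 375 in every mouse.

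**Figure D1:**
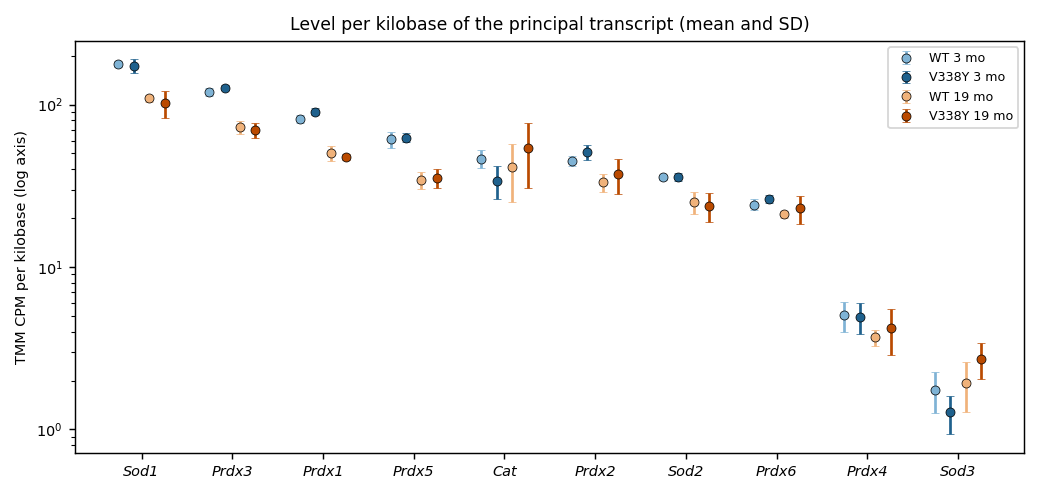
TMM CPM per kilobase of the principal transcript (log axis) for the 10 genes in the 4 groups, ordered by the 3 mo WT level; points are group means and bars the SD over 3 or 4 mice. Sod1 leads in all groups, and Prdx4 and Sod3 lie far below the other genes.

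Most of the antioxidant enzymes fell between 3 and 19 mo in WT muscle. Sod1, Sod2, Prdx1, Prdx2, Prdx3 and Prdx5 fell, to between 0.563 and 0.741 of their 3 mo level, and none rose. Sod3, Cat, Prdx4 and Prdx6 did not pass the test. Calls were made with edgeR's quasi-likelihood test at a Benjamini-Hochberg adjusted p under 0.05 over all 13657 genes tested. All 10 genes passed the filter on low counts, and the 6 that fell stand beside a background of 17.8% of all genes called lower and 18.3% called higher (36.2% in either direction). The median log2 fold change of the 10 genes was -0.48 and that of all genes tested was 0.019.

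In V338Y muscle the same 6 genes fell with age, and Sod3 rose. The background here was 22.5% of 13868 genes called lower and 24.4% called higher (46.9% in either direction), and the medians were -0.52 for the 10 genes and 0.072 for all genes. The 2 age comparisons share no mice. The 19 mo values lay below all 3 mo values for 6 of the 10 genes in WT (21.7% of all genes) and for 5 in V338Y (21.9% of all genes). Without any mouse in turn the count of falling genes was 5 or 6 in each genotype, the gene that dropped out being Prdx2 (below).

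**Figure D2:**
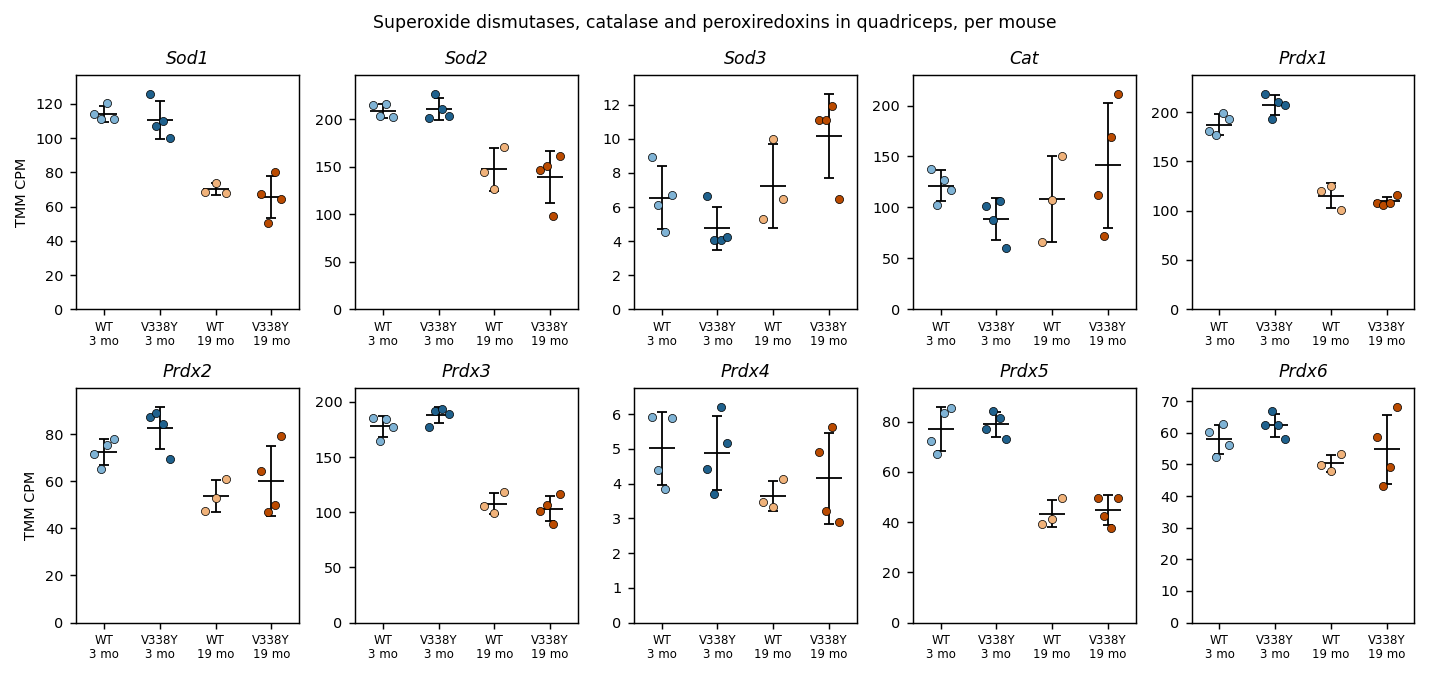
TMM CPM of each gene in each mouse (points), with group mean and SD (bars), for WT and V338Y mice of 3 and 19 mo; each panel has its own linear axis from 0. Sod1, Sod2, Prdx1, Prdx3 and Prdx5 are lower in every 19 mo mouse than in every 3 mo mouse, whereas Sod3 and Cat spread widely at 19 mo.

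Sod1, the copper and zinc dismutase of the cytosol, was at 114, 111, 121 and 111 CPM in the 4 WT mice of 3 mo and at 68.6, 74.0 and 67.8 CPM in the 3 WT mice of 19 mo. In V338Y mice it was at 126, 107, 109.8 and 100.1 CPM at 3 mo and at 67.3, 50.4, 80.3 and 64.2 CPM at 19 mo. No 19 mo mouse reached the lowest 3 mo mouse in either genotype. The log2 fold change with age was -0.70 in WT (SE 0.082, edgeR adjusted p = 0.000491) and -0.74 in V338Y (SE 0.14, adjusted p = 0.00276). Of 3 genes that deliver copper to dismutases, Ccs and Atp7a were not called with age. The chaperone Atox1 fell in WT by 0.64 on the log2 scale (adjusted p = 0.0247) and in V338Y by 0.63 (adjusted p = 0.00799). The shares of all genes called lower were 17.8% and 22.5%. A link of the fall of Atox1 to that of Sod1 was not tested.

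Sod2, the manganese dismutase of the mitochondrial matrix, lay between 202 and 216 CPM in WT and between 202 and 227 CPM in V338Y at 3 mo. At 19 mo it was at 145, 126 and 171 CPM in WT and at 146, 151, 98.7 and 161 CPM in V338Y. The groups did not overlap, and the spread widened with age, from a coefficient of variation of 3.43% to 15.2% in WT and from 5.39% to 19.9% in V338Y. The median coefficient of the 10 genes rose as well, from 7.77% to 12.1% in WT and from 8.06% to 19.9% in V338Y. That of all genes was not computed. The log2 fold changes were -0.50 (SE 0.11, adjusted p = 0.00758) and -0.59 (SE 0.14, adjusted p = 0.00826). Sod2 transcripts share stretches of 145 to 193 bases, at 95% identity or more, with 12 other genes, so part of its count may be split among them.

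Prdx3, the matrix peroxiredoxin, was at 185, 164, 184 and 178 CPM in WT and at 178, 192, 194 and 189 CPM in V338Y at 3 mo. At 19 mo its values were 106, 99.2 and 118 CPM in WT and 101, 106, 89.7 and 116 CPM in V338Y. The age groups were well separated in both genotypes, with a log2 fold change of -0.72 (SE 0.094, adjusted p = 0.000784) and -0.85 (SE 0.097, adjusted p = 0.000218). Thioredoxin 2 (Txn2), which feeds electrons to Prdx3 in the matrix, fell in WT by 0.58 on the log2 scale (adjusted p = 0.00357). In V338Y it was not called (-0.32, adjusted p = 0.107). Txn2 was not called in the test of age by genotype, so its falls are not shown to differ between the genotypes.

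Prdx5 showed the largest fall in WT of the 10 genes. It lay between 67.2 and 85.3 CPM at 3 mo over both genotypes and between 37.6 and 49.5 CPM at 19 mo, with no overlap. The log2 fold change was -0.83 in WT (SE 0.12, adjusted p = 0.00130) and -0.81 in V338Y (SE 0.11, adjusted p = 0.000442). Prdx5 shares 409 exon bases with Trmt112 on the opposite strand, and the sources used here do not state whether counting used strand. Trmt112 averaged 77.5 reads per mouse, against at least 375 for Prdx5.

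Prdx1, a cytosolic peroxiredoxin and a well-known Nrf2 target, was at 181, 177, 199 and 193 CPM in WT and at 219, 193, 210.2 and 207 CPM in V338Y at 3 mo. At 19 mo it was at 120.2, 125 and 101 CPM in WT and at 108, 106, 108 and 116 CPM in V338Y. This was the largest fall in V338Y, and the 19 mo V338Y mice were close together (coefficient of variation 4.08%). The log2 fold change was -0.70 in WT (SE 0.10, adjusted p = 0.00125) and -0.91 in V338Y (SE 0.084, adjusted p = 9.38e-05). The difference between these 2 falls was not called (interaction log2 -0.22, 95% interval -0.48 to 0.032, adjusted p = 0.572). Processed copies of Prdx1, Prdx2 and Sod1 elsewhere in the genome took at most 0.272 CPM in any mouse.

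Prdx2, the other main cytosolic peroxiredoxin and an abundant protein of red blood cells, fell less and its call was fragile. It was at 71.5, 65.4, 75.6 and 77.9 CPM in WT and at 87.6, 89.0, 84.2 and 69.4 CPM in V338Y at 3 mo. At 19 mo it was at 47.4, 52.9 and 61.1 CPM in WT and at 64.3, 47.2, 49.8 and 79.3 CPM in V338Y. The WT groups did not overlap, but mouse 5 of the 19 mo V338Y group lay above mouse 4 of the 3 mo group. The log2 fold change was -0.43 in WT (SE 0.11, adjusted p = 0.0147) and -0.44 in V338Y (SE 0.17, adjusted p = 0.0493). In WT the call was lost without mouse 4 of 19 mo (adjusted p = 0.0526). In V338Y it was lost without any one of mice 2, 3 or 4 of 19 mo or mice 1, 2 or 3 of 3 mo (adjusted p between 0.0664 and 0.121). The erythroid marker list summed to 854 CPM in mouse 5 of the 19 mo V338Y group, against 162 to 433 CPM in the other 3 and 98.0 to 151 CPM in 19 mo WT mice, and its part in the Prdx2 level was not tested. Prdx2 also shares exon bases on the opposite strand with Junb (173) and Rnaseh2a (177).

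Prdx6, which uses glutathione rather than thioredoxin, and Prdx4, the peroxiredoxin of the endoplasmic reticulum, were not called with age. Prdx6 averaged 57.9 ± 4.64 CPM (SD, n = 4) at 3 mo and 50.4 ± 2.65 CPM (n = 3) at 19 mo in WT, a log2 difference of -0.20 (95% interval -0.41 to 0.012, adjusted p = 0.124). In V338Y the difference was -0.18 (interval -0.48 to 0.13, adjusted p = 0.315). Prdx4 was low throughout, between 2.89 and 6.20 CPM in all 15 mice, and its intervals were wide. Its log2 difference was -0.45 in WT (interval -0.91 to 0.0076, adjusted p = 0.111) and -0.23 in V338Y (interval -0.81 to 0.34, adjusted p = 0.473). Prdx4 lies on chromosome X (155323918 to 155340754, GRCm38), and the sexes differ between the ages.

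Sod3, the secreted dismutase bound to the extracellular matrix, was the one gene of the 10 called higher with age, in V338Y mice. Its values were 6.66, 4.09, 4.05 and 4.26 CPM at 3 mo and 11.1, 11.1, 11.9 and 6.49 CPM at 19 mo. Of the older V338Y mice, 3 lay above all younger ones and mouse 5 lay just below mouse 1 of 3 mo. The log2 fold change was 1.08 (SE 0.23, adjusted p = 0.00468), a 2.11-fold rise. Without mouse 5 it was 1.25 (adjusted p = 0.000644), and it was called in all 15 alternative fits run (highest adjusted p = 0.0177). In WT, Sod3 was at 8.93, 6.10, 4.51 and 6.70 CPM at 3 mo and at 5.28, 9.98 and 6.45 CPM at 19 mo, and the groups overlapped (log2 0.15, 95% interval -0.46 to 0.76, adjusted p = 0.685). The difference between the 2 genotypes' changes was 0.92 on the log2 scale (interval 0.10 to 1.73). It had an unadjusted p of 0.0302 and was not called after adjustment over 14128 genes (edgeR adjusted p = 0.485), so the rise is not shown to be particular to V338Y mice.

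Sod3 is made by vascular smooth muscle and other cells around the fibers, and the marker sums of such cells differed with age in both directions. The smooth muscle list summed to 53.4 to 80.1 CPM over all 3 mo mice, to 111 to 206 CPM in 19 mo WT and to 101 to 162 CPM in 19 mo V338Y mice. The macrophage list summed to 193 to 278 CPM at 3 mo and 292 to 338.2 CPM at 19 mo in WT, and to 218 to 358 CPM and 351 to 418 CPM in V338Y mice, where the ages overlapped. The fibroblast list summed to 1174 to 1851 CPM at 3 mo and 999 to 1312 CPM at 19 mo in WT, and to 1769 to 1866 CPM and 781 to 1721 CPM in V338Y. Of its 6 genes, 3 were called lower in each genotype, against 17.8% of all genes in WT and 22.5% in V338Y. In WT, 1 of the 6 was called higher. Of the smooth muscle list, 3 of 3 genes tested in WT and 4 of 4 in V338Y were called higher. It was 4 of 7 in each genotype for the macrophage list, and 2 of 4 and 3 of 4 for the endothelial list. Of the adipocyte list, 2 of 7 were called lower in WT and 2 of 7 higher in V338Y. The shares of all genes called higher were 18.3% in WT and 24.4% in V338Y. The part of these lists in the Sod3 difference was not tested.

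Catalase was the most variable of the 10 genes at 19 mo. It was at 138, 102, 127 and 117 CPM in WT and at 101, 87.7, 106 and 60.2 CPM in V338Y at 3 mo. At 19 mo it was at 66.1, 107 and 151 CPM in WT and at 112, 72.0, 169 and 211 CPM in V338Y, so the coefficient of variation rose from 12.6% to 39.2% and from 23.2% to 43.5%. The groups overlapped with age in both genotypes. The log2 fold change was -0.17 in WT (95% interval -0.69 to 0.36, adjusted p = 0.606) and 0.68 in V338Y (interval 0.0016 to 1.36, adjusted p = 0.0913). Without mouse 3 of the 19 mo V338Y group the V338Y difference was 0.89 and was called (adjusted p = 0.0143), whereas without mouse 5 of that group it was 0.43 (adjusted p = 0.212).

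The difference between these changes of Cat was 0.83 on the log2 scale and was not called (interval -0.091 to 1.76, adjusted p = 0.566). With the mouse number within age as a replicate block it was 1.10 (SE 0.18) and was called (edgeR adjusted p = 0.0270), as were 0.828% of all genes in that fit. The block also paired the 3 mo mice, where same-numbered mice correlated at only -0.162 to 0.141. It gave no weight to V338Y mouse 3 of 19 mo, which has no WT partner. Without that mouse and without the block the difference was 1.06 and was not called (edgeR adjusted p = 0.228). Marker lists of other cells also varied among these mice. The adipocyte list summed to 731, 247, 1305 and 585 CPM in mice 2 to 5 of the 19 mo V338Y group and to 211, 307 and 467 CPM in mice 2, 4 and 5 of 19 mo WT. In 19 mo WT the sums followed the order of Cat, but in 19 mo V338Y the mouse with the highest sum, mouse 4, was at 169 CPM of Cat and mouse 5 at 211 CPM. The slow fiber list followed the order of Cat in both 19 mo groups. It summed to 87.6, 439 and 763 CPM in mice 2, 4 and 5 of WT and to 152, 76.4, 154 and 2631 CPM in mice 2 to 5 of V338Y. The part of either list in the Cat level was not tested.

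None of the 10 genes was called by genotype at either age. At 3 mo, V338Y was compared with WT over 13333 genes, of which 0.075% were called, and at 19 mo over 13833 genes, of which 0.0434% were called; none of the 10 genes was among them. With mice paired by number at 19 mo, 97 genes were called higher and 13 lower (0.795%), and DESeq2 called 0.495% of genes at 3 mo and 0.448% at 19 mo, again with none of the 10. At an unadjusted p under 0.05, Cat and Prdx1 passed at 3 mo, against 9.70% of all genes, and none passed at 19 mo, against 8.92%. The V338Y and WT groups overlapped for all 10 genes at both ages, against 4.71% of all genes without overlap at 3 mo and 9.78% at 19 mo.

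Intervals limit how large a genotype difference could be. At 3 mo they were narrow for the abundant genes: the log2 difference was between -0.21 and 0.13 for Sod1, -0.12 and 0.15 for Sod2, and -0.057 and 0.22 for Prdx3. Cat was lower in V338Y by 0.44 on the log2 scale (interval -0.79 to -0.094, adjusted p = 0.435) and Prdx1 was higher by 0.15 (interval 0.0050 to 0.29, adjusted p = 0.502). Cat lies on chromosome 2 (103453849 to 103485160, GRCm38), the chromosome of Mrps5, 24.1 megabases from it. At 19 mo the intervals were wider, and Sod3 (0.51, interval -0.12 to 1.15, adjusted p = 0.603) and Cat (0.42, interval -0.47 to 1.31, adjusted p = 0.768) had the highest estimates. Leaving out single mice moved them to between 0.33 (without WT mouse 2) and 0.82 (without WT mouse 4) for Sod3 and to between 0.16 (without V338Y mouse 5) and 0.74 (without WT mouse 5) for Cat. With mice paired by number at 19 mo, Cat was 0.67 higher in V338Y (SE 0.12, edgeR adjusted p = 0.0573). That fit gives no weight to V338Y mouse 3, which has no WT partner and the lowest Cat of its group. Without that mouse the unpaired difference was 0.65 (edgeR adjusted p = 0.462). The age and genotype comparisons share mice, so these differences are not independent of the age changes above.

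**Figure D3:**
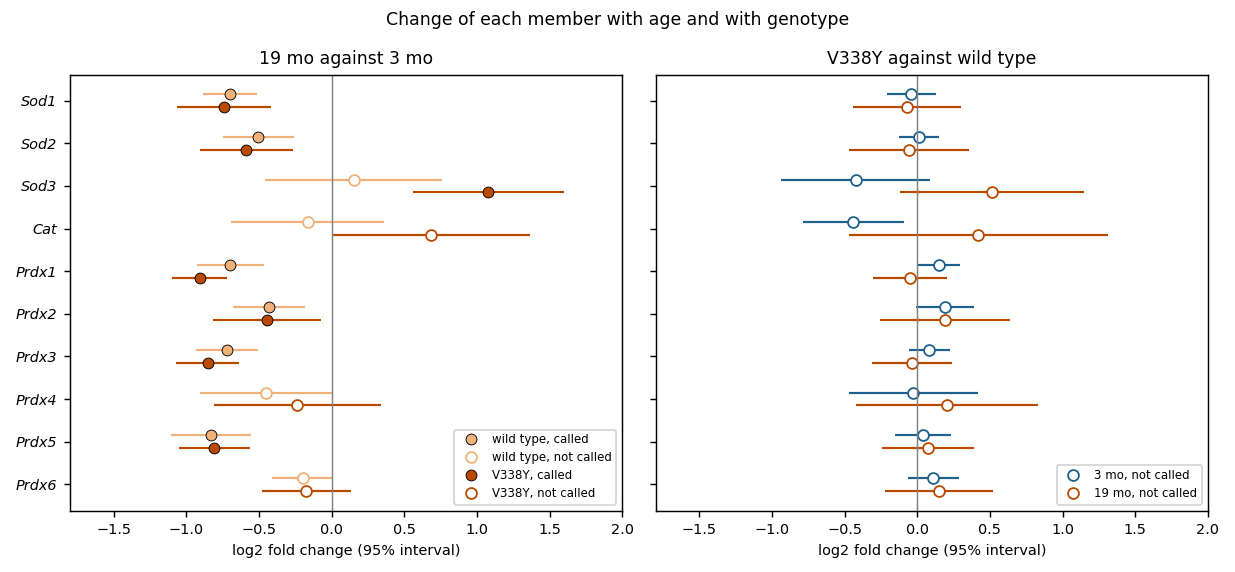
Log2 fold change of each gene with its 95% interval, left for 19 against 3 mo in WT and V338Y mice and right for V338Y against WT mice at each age; filled points were called at an adjusted p under 0.05. On the left, 6 genes are called below 0 in both genotypes and Sod3 is called above 0 in V338Y, and on the right no point is filled.

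The falling genes were set against the respiratory chain, a main source of superoxide. Of 20 nuclear-encoded subunits, 20 fell with age in WT and 18 in V338Y (17.8% and 22.5% of all genes), with mean log2 changes of -0.68 and -0.69. Relative to that mean, Sod1 differed by -0.015 in WT and by -0.074 in V338Y, and Prdx3 by -0.037 and -0.17. Sod2 lay slightly above it (0.17 and 0.072), as did Prdx2 (0.25 and 0.21), and Prdx5 lay below it (-0.14 and -0.13). Prdx1 was level with the mean in WT (-0.016) and below it in V338Y (-0.23). Taken relative to the chain in each mouse, Sod2 and Prdx2 did not overlap between the ages in WT, whereas the other 4 genes in WT and all 6 in V338Y did. These differences from the chain were not tested. The share of all genes without overlap on this scale was not computed, so these overlaps have no background.

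**Figure D4:**
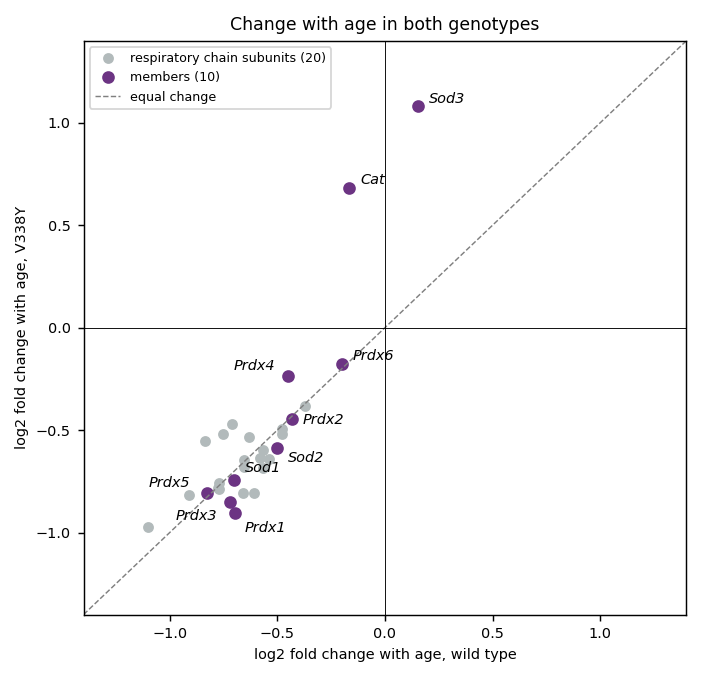
Log2 fold change with age in WT (horizontal) and in V338Y (vertical) for the 10 antioxidant genes (purple, named) and 20 respiratory chain subunits (grey); the dashed line marks equal change. The 6 falling genes lie among the respiratory chain subunits near the line, and Sod3 (0.15 and 1.08) and Cat (-0.17 and 0.68) lie above it.

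Across all 15 mice, the transcripts most like each gene were found by Pearson's r of log2(CPM + 0.5) among 9445 genes, given as a description. Points share the age split, so r after removal of group means is given second. Sod2 was most like Atp5c1, a subunit of ATP synthase (0.974 and 0.917), and Dld, a matrix dehydrogenase subunit (0.974 and 0.921), although Dld shares a 188-base stretch with Sod2. Prdx5 was most like the complex III subunits Uqcrh (0.984 and 0.869) and Uqcr10 (0.983 and 0.890), and Prdx3 like the complex I subunit Ndufb11 (0.987 and 0.789) and the matrix ligase subunit Sucla2 (0.985 and 0.825). Sod1 was most like the ribosomal protein Rplp2 (0.963 and 0.731) and the proteasome assembly factor Pomp (0.954 and 0.670), and Prdx1 like Serpinb6a (0.989 and 0.827) and the RNA polymerase subunit Polr1d (0.987 and 0.757).

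Cat was most like Pnpla2, the adipose triglyceride lipase (0.932 and 0.935), and Slc27a1, a fatty acid transporter (0.923 and 0.948), pairs that held as closely within groups as across them. Prdx2 was most like Acads, a dehydrogenase of short-chain fatty acids (0.961 and 0.959), and Abhd11 (0.931 and 0.832), and Prdx6 like Acads (0.881 and 0.892) and Alad, an enzyme of heme synthesis (0.852 and 0.869). Sod3 was most like the kinase gene Fyn (0.907 and 0.878) and Lmf2 (0.890 and 0.741). Prdx4 had the loosest companions, Alg5 of the glycosylation pathway (0.788 and 0.718) and the X-linked Wdr13 (0.768 and 0.686).

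Other parts of the peroxide defense changed with age in both directions. Of 12 glutathione system genes, 6 fell and 1 rose in WT, and 4 fell and 1 rose in V338Y (median log2 -0.34 and -0.26). The share called was thus above the 36.2% of all genes in WT and below the 46.9% in V338Y. The share called lower was above that of all genes in WT (17.8%) and in V338Y (22.5%). The rising gene was the secreted peroxidase Gpx3 (1.05 in WT, adjusted p = 0.00101, and 0.88 in V338Y, adjusted p = 0.0100). The glutaredoxins Glrx5 (-0.95, adjusted p = 0.000588) and Glrx (-0.75, adjusted p = 0.00630) had the lowest p of the falling genes in WT, and Glrx5 (-0.61, adjusted p = 0.00261) and the mitochondrial Glrx2 (-0.50, adjusted p = 0.00784) had it in V338Y, with the lipid peroxidase Gpx4 next (-0.43, adjusted p = 0.00908). Of 10 thioredoxin system genes 9 were tested, Txnrd2 being below the filter, and 2 fell and 1 rose in each genotype, a share below that of all genes in both (36.2% and 46.9%). Thioredoxin Txn1, the electron donor of cytosolic peroxiredoxins, fell in WT (-0.37, adjusted p = 0.0450) and V338Y (-0.48, adjusted p = 0.00619), and the sestrin Sesn3 rose (1.03, adjusted p = 0.00693, and 1.10, adjusted p = 0.000247). The reductase Txnrd3 fell in V338Y (-0.44, adjusted p = 0.0459).

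Of 8 peroxisome genes, 3 fell in WT, against 17.8% of all genes called lower and 36.2% called in either direction. In V338Y, 4 fell and 1 rose, against 22.5% called lower, 24.4% called higher and 46.9% called in either direction. The import factors Pex2 (-0.56, adjusted p = 0.00740, and -0.74, adjusted p = 0.000982) and Pex10 (-0.60, adjusted p = 0.0231, and -0.71, adjusted p = 0.0129) and Pex13 (-0.31, adjusted p = 0.0235, and -0.32, adjusted p = 0.0202) fell in both genotypes, while catalase, the enzyme they help to import, was not called. The rising gene, named after its value was seen, was the oxidase Acox3 (0.27, adjusted p = 0.0344). Of 8 genes of superoxide production, 2 rose in WT and 6 in V338Y, and none fell, against 18.3% and 24.4% of all genes called higher. None of the 8 was called in the test of age by genotype. The phagocyte oxidase subunit Cybb rose in both (0.84, adjusted p = 0.00802, and 1.13, adjusted p = 0.00923), as did Rac2 (1.06, adjusted p = 0.0324, and 2.25, adjusted p = 0.00416). Nox4, an oxidase that releases hydrogen peroxide, rose in V338Y (1.06, adjusted p = 0.00154). The neutrophil marker list, whose cells carry Cybb and Rac2, summed to 620.2 CPM in mouse 5 of the 19 mo V338Y group. It summed to 26.3 CPM or less in every other mouse, and to 2.37 to 4.79 CPM in 19 mo WT. Of the macrophage list, 4 of 7 genes were called higher with age in each genotype, against 18.3% and 24.4% of all genes. The part of either list in these values was not tested.

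Among 8 regulators of antioxidant genes, 3 rose and 2 fell in WT and 4 rose and 2 fell in V338Y, against 36.2% and 46.9% of all genes called. Trp53 (1.07, adjusted p = 0.000813, and 0.98, adjusted p = 0.000612), Foxo3 (0.94, adjusted p = 0.00192, and 0.77, adjusted p = 0.0115) and Foxo1 (1.37, adjusted p = 0.0165, and 1.50, adjusted p = 0.00411) rose. The mitochondrial deacetylase Sirt3, known to activate Sod2 protein, fell (-0.77, adjusted p = 0.00442, and -0.76, adjusted p = 0.00550), as did Keap1, the inhibitor of Nrf2 (-0.43, adjusted p = 0.00747, and -0.71, adjusted p = 0.000524). No gene of these lists was called by genotype at either age. The lowest p at 19 mo were those of the oxidase subunit Cyba (0.64, edgeR adjusted p = 0.483) and of Gpx1, a glutathione peroxidase (0.60, edgeR adjusted p = 0.488). In the test of age by genotype none of 14128 genes was called, 1355 had an unadjusted p under 0.05 and DESeq2 called 20 higher and 6 lower, none of them among the 10.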

How the data were processed

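RNA of quadriceps from 15 mice was sequenced single-end. The authors deposited 1 table per mouse of RSEM expected counts per gene, as whole numbers and not scaled, against Ensembl annotation. Per the labels, STAR 2.4.2a and genome build GRCm38 were used and GRCh37, a human build, is listed as well, whereas the study's methods name another mouse build. Whether counting used strand is not given in the sources used here. Total counts were 8250653 to 18968132 per mouse, so genes under about 10 counts are imprecise. From these counts, a gene was kept where 50% or more of the mice in 1 compared group held 10 or more counts. As in the study's methods, edgeR was used (4.0.16, R 4.3.3) with Benjamini-Hochberg adjustment over all genes; TMM scaling and the quasi-likelihood test were chosen here. The 95% intervals use the test's own degrees of freedom. The fits were tested on simulated data. Mice were grouped by genotype and age. GENCODE GRCm38 annotation gave positions. Alternatives used RLE factors, DESeq2 1.42.0, other filters, removal of the 10 most counted genes, a fit of all 15 mice, a replicate block and leave-one-out.

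The 10 genes were chosen by family name, and the pathway and marker lists by function, all with earlier results of these data known. Named from the lists were up to 3 called genes of lowest p per comparison, else up to 2, and for each of the 10 genes the 2 most similar transcripts with a mean of at least 5 CPM. A gene that this rule names among those of superoxide production is counted in its list but not reported here. Mouse numbers recur across groups in the labels. Deviations of same-numbered mice from their group means correlated over genes at 0.132 to 0.400 between genotypes at 19 mo, in all 3 pairs. Other pairs reached 0.467. At 3 mo (-0.162 to 0.141) and across ages (-0.136 to 0.0158) the correlations of same-numbered mice included values below 0. The main fits were unpaired at both ages, and pairing by number entered only the fits with a replicate block. No 2 files were identical. Nothing states how the mice were housed or bred, so p-values measure the spread between these mice.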

Additional observations from a re-analysis of the deposited data

Results flagged for a closer look

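Among 30 sets of 4 mice of 1 group (10 genes in 3 groups), 2 held a mouse far from the other 3 by Dixon's ratio, and chance alone flags about 1 in 20 sets. Both concern Sod3 in V338Y mice. At 3 mo, mouse 1 was at 6.66 CPM and the other 3 at 4.05 to 4.26 CPM. At 19 mo, mouse 5 was at 6.49 CPM and the other 3 at 11.1 to 11.9 CPM. Without mouse 1 of 3 mo the rise of Sod3 with age in V338Y was 1.30 on the log2 scale (edgeR adjusted p = 0.00303), and without mouse 5 of 19 mo it was 1.25 (adjusted p = 0.000644), against 1.08 with all mice. Mouse 5 of 19 mo was also the mouse with the highest neutrophil (620.2 CPM), slow fiber (2631 CPM) and erythroid (854 CPM) marker sums. Its fibroblast sum (781 CPM) was the lowest of all 15 mice. Within its group, its smooth muscle sum (162 CPM) was the highest and its macrophage sum (351 CPM) the lowest. The part of these lists in its Sod3 level was not tested.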

How the results depend on the processing

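Over 158 recomputed counts of how many of the 10 genes were called, many of them 0, 156 stayed within 1.5 times the reported count. The 2 that did not were the count called higher with age in V338Y, which ranged from 1 to 2 when single mice were left out (Cat joined Sod3 without mouse 3 of 19 mo), and the count called higher in the age by genotype test, which was 1 (Cat) with a replicate block. The block changed no other call of the 10 genes. Of 790 recomputed log2 fold changes, 739 kept direction and call, 8 lost a call (Prdx2 with age, including -0.43 at adjusted p = 0.0552 under filterByExpr in V338Y), 2 gained one (Cat) and 41 changed sign, none of them a called value. The genes Sod1, Sod2, Prdx1, Prdx3 and Prdx5 were called lower with age in all 70 fits in WT and all 75 in V338Y (highest adjusted p = 0.0308 and 0.0272). With the replicate block the sign changed for Sod1 by genotype at 19 mo (0.040) and in the age by genotype test (0.053), and for Prdx2 in that test (0.063). Leaving out single mice changed signs within these ranges of log2 fold change: with age in WT, Cat -0.49 to 0.086 and Sod3 -0.16 to 0.34; by genotype at 3 mo, Sod1 -0.11 to 0.0023, Sod2 -0.022 to 0.037, Prdx4 -0.17 to 0.078 and Prdx5 -0.021 to 0.093; by genotype at 19 mo, Sod1 -0.19 to 0.049, Sod2 -0.15 to 0.073, Prdx1 -0.13 to 0.013 and Prdx3 -0.093 to 0.040; and in the age by genotype test, Sod1 -0.14 to 0.056, Sod2 -0.19 to 0.063, Prdx2 -0.16 to 0.081, Prdx5 -0.055 to 0.12 and Prdx6 -0.081 to 0.12. The cause of these changes was not tested. Over all genes, counts moved more: with the block, the age by genotype test called 83 higher and 34 lower (0 without it), the genotype test at 19 mo 97 and 13 (5 and 1 without it), and the age test in WT 1191 and 1038 (2505 and 2435 without it). DESeq2 called 36 and 30 by genotype at 3 mo (5 and 5 by edgeR) and 48 and 14 at 19 mo. Without mouse 5 of 19 mo, or with the block, the change of Cat with age in V338Y was 0.43. With no filter on low counts the median of all genes shifted to 0.25 with age in V338Y. Counts of 37 to 166 for Sod3 and 39 to 77 for Prdx4 limit their precision, and 3 or 4 mice per group limit all genotype differences. Age and sex cannot be told apart.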
